A study of Mus musculus with 6 samples.

Results

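The genes described here encode the route by which a cell detects nucleic acid in its cytoplasm and answers with type I interferon. They were taken from the deposited expression table by gene symbol. No measured value enters that rule, but the list of symbols was chosen with earlier results of these data known. Of 43 symbols listed, 42 corresponded to a row of the 34745 genes in the table, since Cgas and Mb21d1 are names of the same gene and the table uses Mb21d1. The members comprise 4 DNA sensors, 3 RNA sensors, 2 adaptors, 2 kinases, 4 interferon regulatory factors (IRFs), the ligand Ifnb1, 6 genes of the receptor and its JAK-STAT pathway, 3 genes whose products remove or modify nucleic acids, and 17 interferon-stimulated genes. 36 of the 42 had enough reads to be tested.

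DNA in the cytoplasm is bound by cGAS, the product of Mb21d1, which makes the second messenger cGAMP. This messenger activates STING, the product of Tmem173, and STING recruits the kinase TBK1, which phosphorylates IRF3 so that interferon beta is transcribed. The secreted interferon binds its receptor IFNAR1 and IFNAR2, the kinases JAK1 and TYK2 phosphorylate STAT2, and a complex that holds STAT2 and IRF9 binds the interferon-stimulated response element (ISRE) in the promoters of many antiviral genes. Viral RNA, or RNA transcribed from AT-rich DNA in the cytoplasm, enters the same cascade through RIG-I and MDA5 and the adaptor MAVS. Cell lines differ widely in how much of this route they keep.

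MLE-12 is a mouse lung epithelial cell line, derived from a lung tumour of a mouse that carried SV40 large T antigen under the surfactant protein C promoter. 3 cultures received a plasmid with the NR4A1 open reading frame in pCMV-SPORT6 (NR4A1 overexpression) and 3 received the pCMV-SPORT6 vector alone (vector control), in each case with a Lipofectamine reagent. All 6 cultures were therefore given plasmid DNA, no culture without plasmid was analysed here, and the comparison concerns NR4A1, a nuclear receptor, and not the transfection itself. The interval from transfection to RNA extraction is not given for these libraries in the sources used here. Nothing in the labels says that the 3 cultures of a group were independent, so that p-values measure only the spread between these samples, which may be technical.

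The number of reads counted per library lay between 15019038 and 17574340, where 3 counts correspond to 0.171 to 0.200 CPM (counts relative to the library total). These limits cover counting error only. Values by library are given in the order of replicates 1, 2 and 3. The overexpressed gene had 50660, 60093 and 68555 counts with the NR4A1 plasmid and 428, 510 and 463 counts with the vector (Nr4a1 log2 fold change 7.07, SE 0.136, adjusted p = 2.13e-06 in edgeR's quasi-likelihood test). Of 10 lung epithelial markers, Krt8, Krt19, Cdh1, Nkx2-1, Foxa2, Sftpb and Sftpc were counted 189 times or more in every library, whereas Epcam had 2 to 22 counts and Cldn4 at most 1. Krt18 had 164 counts in NR4A1 overexpression replicate 2 and 2 to 21 in the others. NR4A1 overexpression replicate 2 stood apart from the other 5 libraries. Its summed level of 8 endothelial markers was 116 CPM against 14.1 to 16.6 CPM elsewhere, that of 6 smooth muscle markers was 321 CPM against 1.49 to 2.72 CPM, and that of the fibroblast markers without Dcn was 778 CPM against 11.5 to 61.3 CPM. Among those 5, vector control replicate 1 held the 61.3 CPM of fibroblast markers, with 11.5 to 20.6 CPM in the rest. Results that rest on NR4A1 overexpression replicate 2 are given with and without it.

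The members were transcribed at levels from none to over 100 FPKM (the deposited unit, which scales the count by library total and gene length). 11 had a mean FPKM of at least 10, 18 lay between 1 and 10, and 13 lay under 1. The highest were both membrane-anchored antiviral proteins, Bst2 (tetherin) at 142 FPKM and Ifitm3 at 104 FPKM. Next came Irf3 at 27.6, Tbk1 at 27.1 and Ifit2 at 26.3 FPKM, so that the kinase and the factor that start interferon transcription were among the 5 highest. Ifnb1, which encodes interferon beta itself (chromosome 4, 88522025 to 88522774 on GRCm38), had 0 counts in all 6 libraries, which allows a level of up to 0.200 CPM in the shallowest library. In bulk RNA a low level from all cells and a high level from few cells cannot be told apart, and the same holds for every value below.

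**Figure D1:**
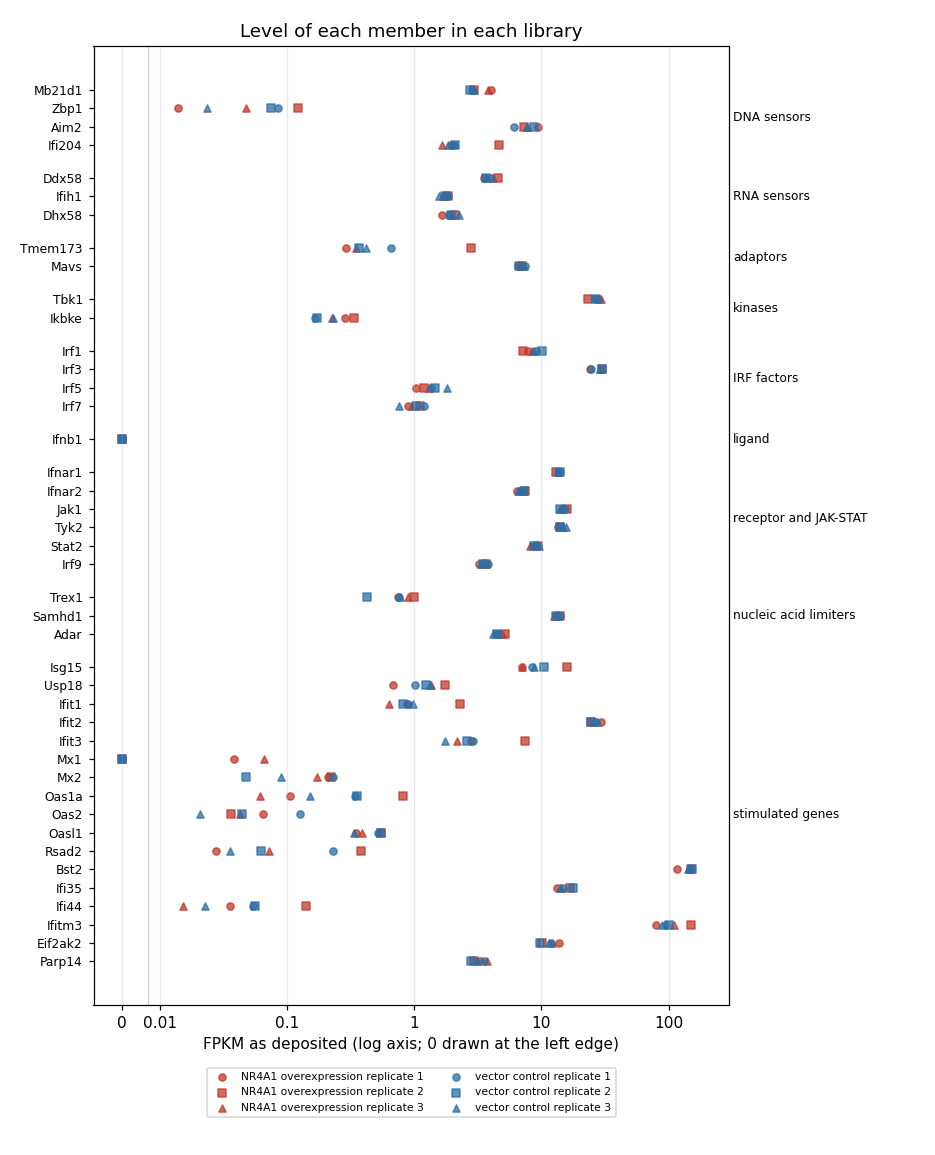
FPKM of each of the 42 members in each of the 6 libraries, on a log axis with values of 0 drawn at the left, grouped by role. The 3 NR4A1 overexpression and 3 vector control libraries overlap for most members, and the square of NR4A1 overexpression replicate 2 lies to the right of all others for Tmem173, Ifi204, Isg15, Ifit1, Ifit3 and Oas1a.

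No tested member was called higher or lower under NR4A1 overexpression. By the quasi-likelihood test of edgeR, adjusted by the Benjamini-Hochberg method over 12941 tested genes, 0 of the 36 tested members had an adjusted p under 0.05 together with a 2-fold change, and 0 had such an adjusted p at any fold. Of all tested genes 22 passed, or 0.170%, all of them higher. 1 member had an unadjusted p under 0.05, against 6.46% of all tested genes. DESeq2 and limma each also called 0, where limma tested only 30 of the 36 members. The fold changes of the 36 members ranged from -0.37 to 1.26 on the log2 scale, with a median of 0.06 beside 0.01 over all tested genes. The median size of the change, regardless of sign, was 0.10 for the members and 0.10 for all genes. For 28 of the 36 members the 95% interval of the fold change lay within 2-fold in both directions, as it did for 85.5% of all tested genes. For the other 8 (Tmem173, Ifi204, Ikbke, Trex1, Ifit1, Ifit3, Mx2 and Oas1a) a 2-fold change was within the interval.

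**Figure D2:**
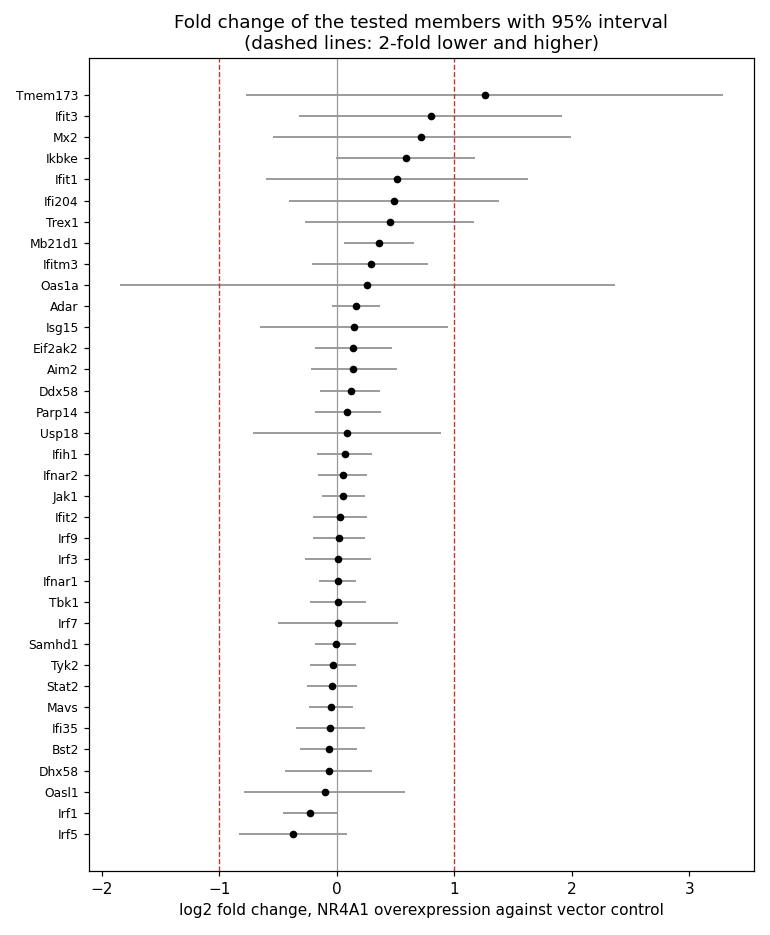
Log2 fold change of the 36 tested members, NR4A1 overexpression against vector control, with the 95% interval from edgeR's quasi-likelihood fit, ordered by size. Dashed lines mark a 2-fold difference, the points run from -0.37 (Irf5) to 1.26 (Tmem173), and the widest intervals belong to genes with few counts or with 1 high library.

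In 3 members the groups did not overlap, against 12.9% of all tested genes. Mb21d1 was higher in all NR4A1 overexpression libraries and Irf1 and Irf5 were lower. The share of members is below that of all genes.

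Among the DNA sensors, Mb21d1 (cGAS, ENSMUSG00000032344, chromosome 9, 78430526 to 78443237) was counted 540, 444 and 582 times with NR4A1 and 434, 406 and 458 times with vector. Scaled to library size, the lowest NR4A1 library lay just above the highest vector library. The level was 3.58 ± 0.570 FPKM (SD, n = 3) against 2.84 ± 0.0884 FPKM (SD, n = 3). The log2 fold change of Mb21d1 was 0.36 with an SE of 0.126, and the p of 0.0242 became 0.671 after adjustment in edgeR's quasi-likelihood test. Across all alternative settings and with each library left out, its log2 fold change stayed between 0.25 and 0.48 and its adjusted p was never under 0.16, the value without NR4A1 overexpression replicate 2. Aim2, a sensor that assembles an inflammasome on DNA, was the highest of the 4 at 7.80 FPKM, with a log2 fold change of 0.14. Zbp1, which binds left-handed nucleic acid and can start necroptosis, had 1 to 10 counts per library and was not tested.

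Ifi204, a member of the IFI16-like family of nuclear and cytoplasmic DNA binders, was counted 115, 308 and 112 times with NR4A1 and 138, 136 and 127 times with vector. NR4A1 overexpression replicate 2 held 2.26 times the CPM of any other library, whereas the other 5 libraries were close together. The log2 fold change of Ifi204 was 0.49 (SE 0.381, adjusted p = 0.897 in edgeR's quasi-likelihood test), and -0.13 (SE 0.16) without that library. Of the 50-base stretches in transcripts of Ifi204, 20% also occur in other genes, mainly Ifi211, so that its reads may be divided among relatives.

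The adaptor of the DNA route was scarce. Tmem173, which encodes STING, was counted 10, 108 and 14 times with NR4A1 and 26, 14 and 17 times with vector. 1 library, NR4A1 overexpression replicate 2, was 4.28 times as high as any other in CPM, and NR4A1 overexpression replicates 1 and 3 were the lowest 2, below every vector library. The level was 1.14 ± 1.42 FPKM with NR4A1 and 0.481 ± 0.154 FPKM with vector (SD, n = 3 each). The log2 fold change of Tmem173, 1.26 with an SE of 0.864 (adjusted p = 0.875, edgeR's quasi-likelihood test), became -0.56 without that library. Thus the sensor Mb21d1 at 3.21 FPKM and the kinase Tbk1 at 27.1 FPKM stood on either side of an adaptor at 0.809 FPKM, and at 0.481 FPKM in the vector controls.

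The RNA sensors were present at a few FPKM in every library and lay close together between groups. Ddx58, which encodes RIG-I, a receptor of short RNA with a triphosphate end, had 3.95 FPKM and a log2 fold change of 0.12. Ifih1, which encodes MDA5, the receptor of long double-stranded RNA, had 1.74 FPKM and 0.07, and Dhx58, which encodes their regulator LGP2, had 1.95 FPKM and -0.07 on the log2 scale. Their adaptor Mavs, on the outer mitochondrial membrane, was counted 558, 674 and 660 times with NR4A1 and 720, 627 and 724 times with vector. The groups overlapped, and the level of Mavs was 6.77 ± 0.238 against 7.11 ± 0.379 FPKM (SD, n = 3 each). The mean level of Mavs, 6.94 FPKM over all libraries, was above the mean of Tmem173 in the same libraries, 0.809 FPKM.

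Of the kinases that both adaptors use, Tbk1 was counted 1270, 1202 and 1556 times with NR4A1 and 1391, 1341 and 1501 times with vector. These groups overlapped, with a log2 fold change of 0.01 (95% interval -0.23 to 0.25). Ikbke, the related kinase IKK epsilon, was counted 51, 67 and 46 times with NR4A1 and 34, 34 and 48 times with vector. The lowest NR4A1 library and the highest vector library overlapped. Ikbke had a log2 fold change of 0.59 (SE 0.251, adjusted p = 0.775 in edgeR's quasi-likelihood test). Its mean level, 0.236 FPKM, was far below the 27.1 FPKM of Tbk1.

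The IRF factors differed in level more than they differed between groups. Irf3, the constitutive factor that TBK1 phosphorylates, was counted 851, 1194 and 1193 times with NR4A1 and 998, 1184 and 1195 times with vector. Its groups overlapped (27.5 ± 3.18 against 27.7 ± 2.95 FPKM, SD, n = 3 each). Irf7, which amplifies interferon transcription and is itself interferon-stimulated, was counted 86, 121 and 107 times with NR4A1 and 133, 110 and 85 times with vector. The highest and the lowest value of Irf7 were both vector libraries, its mean level was 0.992 FPKM, and its 95% interval on the log2 scale was -0.50 to 0.52.

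Irf1, a factor induced by interferon gamma that activates antigen presentation and antiviral genes, was counted 679, 699 and 845 times with NR4A1 and 896, 961 and 890 times with vector. Every NR4A1 library was below every vector library. The level of Irf1 was 7.82 ± 0.646 against 9.28 ± 0.675 FPKM (SD, n = 3 each). Its log2 fold change was -0.23 with an SE of 0.0972, and the p of 0.0514 became 0.775 after adjustment in edgeR's quasi-likelihood test. Irf5, a factor of Toll-like receptor signalling, was counted 55, 72 and 80 times with NR4A1 and 83, 86 and 113 times with vector. Scaled to library size these groups did not overlap either, and the log2 fold change of Irf5 was -0.37 (SE 0.195, adjusted p = 0.829 in edgeR's quasi-likelihood test). With each library left out in turn, the log2 fold change lay between -0.29 and -0.17 for Irf1 and between -0.45 and -0.24 for Irf5.

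The receptor and its signalling pathway were the most even group of members. The log2 fold changes of all 6 lay between -0.04 and 0.05, and each 95% interval was within 2-fold. The receptor chains Ifnar1 and Ifnar2 had 13.6 and 6.94 FPKM, and the kinases Jak1 and Tyk2 had 14.8 and 14.4 FPKM. Stat2 was counted 601, 715 and 632 times with NR4A1 and 724, 651 and 749 times with vector, and the groups overlapped. Irf9, the DNA-binding partner of STAT2, was counted 415, 534 and 545 times with NR4A1 and 563, 490 and 502 times with vector, again with overlap. The means of Irf9 were 3.52 ± 0.259 and 3.53 ± 0.251 FPKM (SD, n = 3 each). All chains and signalling proteins of the type I receptor were thus transcribed in these cells while the ligand gene was at 0 counts.

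The genes that limit nucleic acids in the cell were level between groups. Samhd1, a phosphohydrolase of deoxynucleotides, had 13.3 FPKM and a log2 fold change of -0.01, and Adar, which edits double-stranded RNA, had 4.62 FPKM and 0.16. Trex1, the main cytoplasmic DNA exonuclease, was listed with only 15 to 36 counts per library and a log2 fold change of 0.45 (95% interval -0.27 to 1.17). That value is uncertain, since 95.8% of its 50-base stretches also occur in transcripts of Atrip and the gene overlaps Gm42641 on the same strand. The sum of Trex1 and Gm42641 was 353, 363 and 344 counts with NR4A1 and 396, 341 and 336 counts with vector, with overlapping groups.

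The stimulated genes are read best beside the element through which interferon acts. The ISRE was searched as GAAANNGAAA on both strands, from 250 bases before to 50 bases after the start of each gene in RefSeq promoters of GRCm38.p6, with overlapping matches counted separately. It occurred in 11 of the 33 members with an entry (33.3%), against 1079 of 27025 genes (3.99%). Among the stimulated genes it occurred in 8 of 12 (66.7%). The stimulated genes Isg15, Ifit1, Ifit3, Oas1a, Rsad2, Bst2, Ifitm3 and Eif2ak2 hold it, as do the sensors Ddx58 and Ifih1 and the signalling gene Stat2. The NBRE, the response element that NR4A1 binds as a monomer, searched as AAAGGTCA in the same windows, occurred in 1 member, Irf9 (3.03%), against 1.70% of all genes, and in 0 of the 12 stimulated genes. A match is a match of letters only. For 7 stimulated genes whose levels are compared below, 1 match each is shown 5′ to 3′ on the strand that carries it, with the ISRE letters in capitals and 10 bases on each side.
Bst2, chr8:71537577-71537606, minus strand: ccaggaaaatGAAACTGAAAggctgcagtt
Ifitm3, chr7:141010706-141010735, minus strand: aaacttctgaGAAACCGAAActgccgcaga
Isg15, chr4:156200871-156200900, minus strand: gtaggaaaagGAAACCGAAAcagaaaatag
Ifit1, chr19:34640794-34640823, minus strand: tcagcagtgaGAAACTGAAActgagactgg
Ifit3, chr19:34583397-34583426, minus strand: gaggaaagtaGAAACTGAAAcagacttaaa
Oas1a, chr5:120907520-120907549, minus strand: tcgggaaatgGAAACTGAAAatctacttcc
Rsad2, chr12:26456553-26456582, plus strand: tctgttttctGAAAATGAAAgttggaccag
Relative to the start site, the capitals begin, read in the direction of the gene, at -124 for Bst2, -72 for Isg15, -85 for Ifit1, -122 for Ifit3, -14 for Oas1a and -120 for Rsad2, and at 20 for Ifitm3, within the transcribed part. The levels of these 7 genes, all with the same core, ran from 142 FPKM for Bst2 to 0.134 FPKM for Rsad2.

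In the 2 highest stimulated genes the groups overlapped. Bst2 was counted 1345, 1952 and 1914 times with NR4A1 and 1928, 1920 and 1911 times with vector. 5 of the 6 libraries were nearly equal and NR4A1 overexpression replicate 1 was lower, per library total as well (138 ± 17.9 against 147 ± 4.64 FPKM, SD, n = 3 each). Ifitm3, which blocks fusion of enveloped viruses, was counted 809, 1721 and 1305 times with NR4A1 and 1106, 1127 and 1051 times with vector. The lowest and the highest library of Ifitm3 were both NR4A1 libraries, and its log2 fold change of 0.29 (SE 0.211) became 0.03 without NR4A1 overexpression replicate 2. 10% of the 50-base stretches of Ifitm3 occur in other genes.

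The Ifit genes lie side by side on chromosome 19 (Ifit2 at 34550694 to 34576419, Ifit3 at 34583531 to 34588731, Ifit1 at 34640871 to 34650009) and encode proteins that bind foreign RNA. Ifit2 was counted 1923, 1795 and 1928 times with NR4A1 and 2013, 1767 and 2108 times with vector. The groups overlapped and no library stood out. Ifit3 was counted 73, 219 and 66 times with NR4A1 and 87, 75 and 53 times with vector, and Ifit1 35, 103 and 29 times against 41, 36 and 46 times. For both, NR4A1 overexpression replicate 2 was alone at the top, at 2.59 times any other library for Ifit3 and 2.35 times for Ifit1 in CPM, and the other 5 libraries overlapped. The log2 fold changes of 0.80 for Ifit3 (SE 0.476) and 0.51 for Ifit1 (SE 0.473), with adjusted p of 0.840 and 0.919 in edgeR's quasi-likelihood test, became 0.07 and -0.24 without that library. In mean level Ifit2 was at 26.3 FPKM, Ifit3 at 3.27 FPKM and Ifit1 at 1.08 FPKM. Ifit3 shares 51.2% of its 50-base stretches with its neighbour Ifit3b, and the sum of both was 99, 277 and 94 counts with NR4A1 and 126, 109 and 87 counts with vector, with the same library highest.

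Isg15, a ubiquitin-like modifier, was counted 80, 205 and 93 times with NR4A1 and 110, 132 and 115 times with vector. NR4A1 overexpression replicates 1 and 3 were the lowest 2 libraries and replicate 2 the highest. The level of Isg15 was 10.1 ± 5.16 against 9.21 ± 1.15 FPKM (SD, n = 3 each), and its log2 fold change of 0.15 (SE 0.341) became -0.36 (SE 0.174, adjusted p = 0.614 in edgeR's quasi-likelihood test) without replicate 2. Usp18, the protease that removes ISG15 from proteins and damps the receptor, was counted 35 to 101 times per library with a log2 fold change of 0.09.

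The Mx and OAS members, antiviral GTPases and the family of 2′-5′ oligoadenylate synthetases, were listed with at most 52 counts in any library. Mx1 had 3, 0 and 6 counts with NR4A1 and 0 in each vector library, which allows up to 0.181 CPM there, and it was too low to be tested. Mx2 was counted 16, 19 and 15 times with NR4A1 and 20, 4 and 8 times with vector. Its highest value was a vector library, and its log2 fold change of 0.72 had an SE of 0.537. Oas2 had 3 to 18 counts and Oasl1 29 to 52 counts per library. Oas1a had 3, 26 and 2 counts with NR4A1 and 11, 11 and 5 with vector, and it shares 57.6% of its 50-base stretches with Oas1g. Rsad2 (viperin) had 2, 31 and 6 counts with NR4A1 and 19, 5 and 3 with vector. Ifi44 had 4, 18 and 2 counts against 7, 7 and 3. In Oas1a (log2 fold change 0.26, SE 0.896), Rsad2 and Ifi44, the highest library was again NR4A1 overexpression replicate 2. The values by library of these 3 genes and of Ifi204 were added after they had been seen.

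The other stimulated genes were moderately transcribed and even. Ifi35, a regulator released as a danger signal, had 15.1 FPKM and a log2 fold change of -0.06. Eif2ak2, which encodes the kinase PKR that stops translation on double-stranded RNA, had 11.5 FPKM and 0.14. Parp14, a mono-ADP-ribosyltransferase, had 3.23 FPKM and 0.09. None of these 3 had NR4A1 overexpression replicate 2 more than 1.5-fold above the other libraries.

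**Figure D3:**
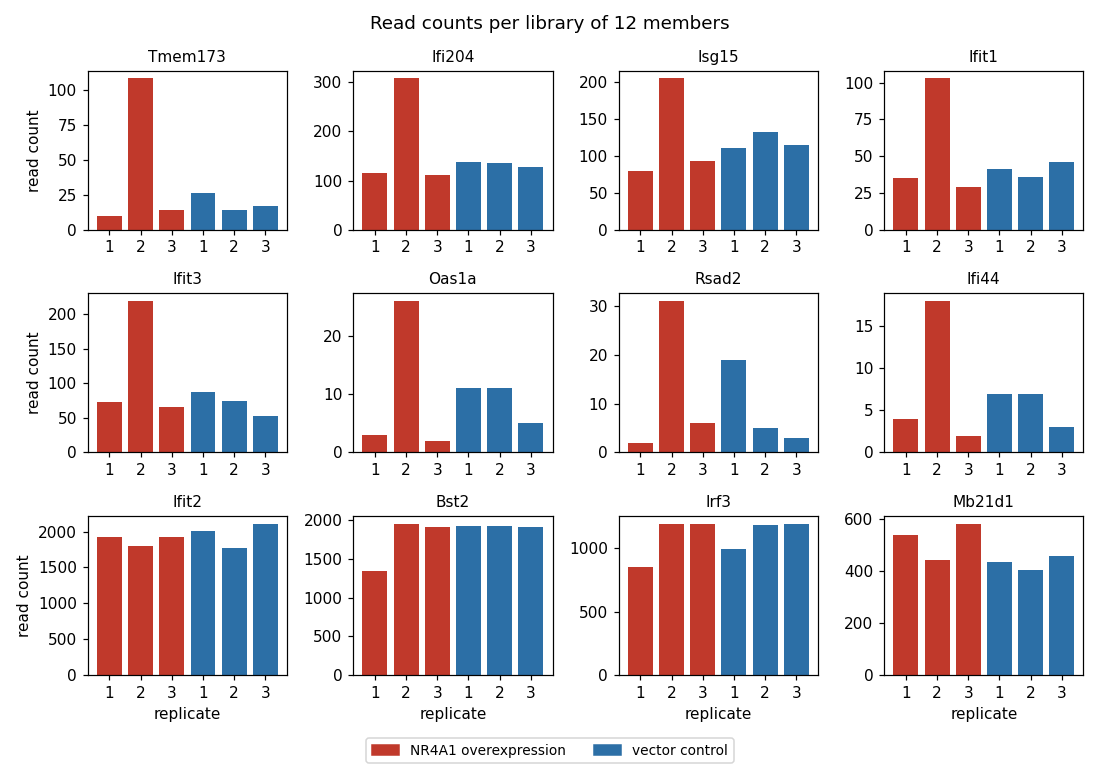
Read counts of 12 members in NR4A1 overexpression replicates 1 to 3 and vector control replicates 1 to 3, with each axis starting at 0. In the upper 8 panels replicate 2 of NR4A1 overexpression is the tallest bar, with 108 counts for Tmem173 and 219 for Ifit3. In the bottom row (Ifit2, Bst2, Irf3 and Mb21d1) it does not stand out above the rest. For Bst2 it is the tallest by little, 1952 counts against 1928 in vector control replicate 1.

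Across the members, NR4A1 overexpression replicate 2 was the highest of the 6 libraries in 20 of 36 tested members, against 22.7% of all tested genes. In 6 of the 36, namely Ifi204, Tmem173, Isg15, Ifit1, Ifit3 and Oas1a, it was at least 1.5-fold above every other library, against 3.68% of all tested genes, and no other library held this place in any tested member. All 6 were among the 25 tested members with a mean under 10 FPKM (5.26% of 8312 tested genes at that level), and 0 of the 11 at 10 FPKM or more were so placed (0.843% of 4629 genes). The median deviation of the 36 members from their own median over the libraries was 0.12 (log2) in this library and between -0.04 and 0.02 in the other 5. For the 13 tested stimulated genes it was 0.27, against -0.13 to 0.03 in the others. These shares were computed after this library had been seen to stand apart and describe it, with no test.

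Markers of other cell types were high in the same library. It was the highest in 7 of 8 endothelial, 6 of 6 smooth muscle and 6 of 8 fibroblast markers, among them Cdh5 with 419 counts against 0 in each other library and Acta2 with 3841 counts against 3 to 15. The summed level of 12 immune markers was 7.27 CPM there and 3.68 to 5.54 CPM in the others, and 4 of the 12 were highest there. Of the 12, Ptprc had 1 count in all 6 libraries together, and Laptm5 and Tyrobp had none. Lyz2 had 20 counts in that library against 0 to 12, and Csf1r 21 against 1 to 4. Cd68 (44 counts there against 27 to 53) and Coro1a (28 against 25 to 39) were not highest there. Itgam had 0 counts there and 8 in NR4A1 overexpression replicate 1. Whether these marker transcripts have a part in the higher counts of Tmem173, Ifi204, Isg15, Ifit1, Ifit3 and Oas1a was not tested, nor was their source. Without this library 0 of 36 members passed the threshold in edgeR's quasi-likelihood test, the median log2 fold change was -0.02, and 16 members lay above 0 and 20 below, where with it 26 lay above and 10 below. The lowest value was then that of Oas1a, -1.70 (SE 0.674, adjusted p = 0.606 in edgeR's quasi-likelihood test), with 3 and 2 counts left in the NR4A1 group against 11, 11 and 5.

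**Figure D4:**
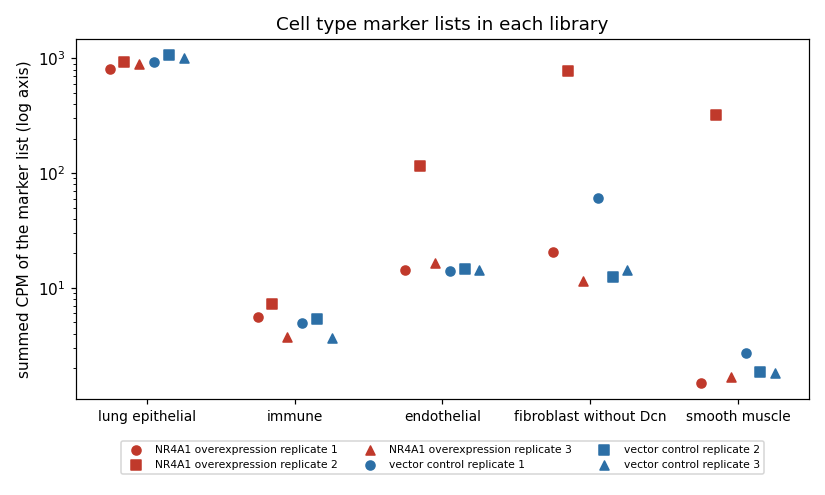
Summed CPM of 5 marker lists in each library, on a log axis (fibroblast markers without Dcn, which MLE-12 cells transcribe in every library). NR4A1 overexpression replicate 2 lies above all others for endothelial (116 CPM), fibroblast (778 CPM) and smooth muscle (321 CPM) markers and among the others for lung epithelial markers (940 CPM).

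A further 111 genes of the pathway that are not members were examined in the same fit. Of the 96 tested, 0 passed the threshold in either direction, 5 had an unadjusted p under 0.05 (6.46% of all tested genes), and in 6 the groups did not overlap (12.9% of all tested genes), with a median log2 fold change of -0.03. Neither share exceeded that of all genes. The 5 were all lower in every NR4A1 library: Dnase2a, the lysosomal DNase (log2 fold change -0.34), Isg20, an RNA exonuclease (-0.29), Rnf135, an activator of RIG-I (-0.28), Ifnlr1, a chain of the interferon lambda receptor (-0.23), and Tapbp, which loads peptides on class I molecules (-0.17). Their adjusted p-values were between 0.665 and 0.761 in edgeR's quasi-likelihood test. Dnase2a, the one with the largest difference, was counted 338, 302 and 349 times with NR4A1 and 468, 391 and 471 times with vector.

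Among the 19 adaptors and kinase partners, 18 were tested, and the highest in level were G3bp1 (47.1 FPKM), Lsm14a (16.5) and Trim25 (12.4 FPKM), the ubiquitin ligase of RIG-I. Of the 20 genes of nucleic acid removal and other DNA sensing, 19 were tested, led by Banf1 (124 FPKM), which wraps DNA and keeps cGAS off it, Dhx9 (39.6) and Ddx41 (30.3 FPKM). Of the 18 genes of interferon signalling and feedback 11 were tested, led by Ifngr2 (28.7 FPKM), Irf2 (25.2) and Pias1 (23.5 FPKM). Ifna4, Ifng and Ifnk had 0 counts in all 6 libraries, as Ifnb1 did. Of 54 other stimulated genes 48 were tested, and the class I genes B2m (679 FPKM) and H2-D1 (250) and the antiviral Ifitm2 (136 FPKM) were highest. In Ifit3b, Iigp1, Mnda and Trim30a, NR4A1 overexpression replicate 2 was again at least 1.5-fold above every other library. Mnda, for example, was counted 29, 80 and 24 times with NR4A1 and 27, 15 and 26 times with vector. These genes were picked by that pattern, and the comparison of groups gave none of them an adjusted p under 0.807 in edgeR's quasi-likelihood test.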

How the data were processed

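RNA was sequenced from 6 MLE-12 cultures, 3 with NR4A1 overexpression and 3 vector controls, as strand-specific libraries, and groups were taken from the treatment labels. The authors deposited 1 table that holds, for each gene, the raw read counts of the 6 libraries and their FPKM values. The submitters' processing notes name HISAT2 2.0.4 and the build GRCm38.p4, and the counting program is not given in the sources used here. Over 10738 genes, the FPKM that the authors deposited differed from the count scaled by library total and 1 length per gene by at most 0.00129%. Of 42 members, 35 have the same coordinates in GENCODE M21, and the others overlap it. No column was left without a sample. Every pair of libraries of a group differed by more than counting error (chi-square per degree of freedom 9.82 to 44.6), so that all 6 were used.

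Counts of all genes entered edgeR 4.0.16 (R 4.3.3) with TMM factors, filterByExpr at its defaults and the quasi-likelihood test, with Benjamini-Hochberg adjustment, and tested on simulated data. The threshold was an adjusted p under 0.05 and a change of 2-fold or more. Groups were called not overlapping on TMM-scaled CPM, and deviations were taken on log2(CPM + 0.25). Alternatives were median-ratio factors, library totals, all genes with a count, genes averaging 10 counts or more, DESeq2 1.42.0, a block for the replicate number, omission of each library or of Nr4a1, limma 3.58.1 on log2(FPKM + 1) where a group mean reached 1 FPKM, and an unadjusted p or no fold threshold. The sum of Trex1 and Gm42641 and the fibroblast sum without Dcn were chosen after seeing the data.

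The members and the lists of other genes and markers were chosen with earlier results of these data known. Values by library are given for the core of the cascade, members that do not overlap or have an unadjusted p under 0.05, the 5 largest fold changes, the 5 highest levels, and members with 1 library at least 3 times the rest. Other genes are named if past the threshold, if not overlapping with an unadjusted p under 0.05, or if among the 3 highest of a list. The genes picked for a high NR4A1 overexpression replicate 2 were later additions, made with the values in view. Results of some genes on the lists are not reported here. Promoters were read with Python 3.11.15 from RefSeq (GRCm38.p6), matching 33 of 42 members by symbol or synonym. Shared 50-base stretches were counted in GENCODE M21 transcripts.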

Additional observations from a re-analysis of the deposited data

How the results depend on the processing

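Under all alternatives run, including an unadjusted p with a 2-fold change and no fold threshold, 0 members and 0 of the other pathway genes passed the threshold. The lowest adjusted p of any member ranged from 0.16 (Mb21d1, without NR4A1 overexpression replicate 2) to 0.996. The number of members with an unadjusted p under 0.05, 1 as reported, was 2 with library totals and 2 with a mean of at least 10 counts, and 0 to 3 with each library left out. The number whose groups do not overlap, 3 as reported, was 4 to 8 with each library left out, where fewer libraries must separate. The shares of all tested genes were not computed for the alternative fits, so these counts cannot be set against them. The median log2 fold change of the members, 0.06 as reported, ranged from -0.02 (without NR4A1 overexpression replicate 2) to 0.09 with each library left out.

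Limma on FPKM did not test Ikbke, Irf7 and Mx2, whose group means were under 1 FPKM. The tested members that the rule for values by library names were followed through every alternative that tested them, and the sign changed in the following. With library totals the log2 fold change became -0.01 for Irf3, -0.01 for Irf7 and -0.01 for Tbk1, and with limma on FPKM -0.01 for Irf3 and -0.02 for Tbk1. With each library left out it ranged from -0.15 to 0.02 for Bst2, -0.24 to 0.83 for Ifit1, -0.06 to 0.08 for Ifit2, -0.07 to 0.10 for Irf3, -0.16 to 0.17 for Irf7, -0.02 to 0.08 for Irf9, -0.36 to 0.34 for Isg15, -0.09 to 0.01 for Stat2, -0.06 to 0.10 for Tbk1 and -0.56 to 1.71 for Tmem173. The causes were not tested. Among the other members, without NR4A1 overexpression replicate 2 the sign also changed in Ifi204 (-0.13), Oas1a (-1.70), Usp18 (-0.21) and, barely, Ifnar2 (-0.00). Ifit3 (0.07 to 1.10), Mx2 (0.35 to 1.54), Ifitm3 (0.03 to 0.48), Irf5 (-0.45 to -0.24) and Mavs (-0.10 to -0.02) kept their sign but moved by over 1.5 times.

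With the replicate number as a block (replicate block), 0 members passed the threshold, 1 had an unadjusted p under 0.05, the median log2 fold change was 0.04, and the lowest adjusted p was 0.439 (Mb21d1). Deviations of libraries 1, 2 and 3 correlated with those of the same number at -0.0111, -0.046 and 0.246, and with those of other numbers at 0.0197, -0.00203 and -0.101 on average. Since only number 3 was above 0.1, the libraries were not treated as paired. Depth limits Ifnb1, Mx1, Zbp1, Oas2, Rsad2 and Ifi44, which were too low to be tested.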
